A study of Mus musculus with 6 samples.

Results

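The heat shock and chaperonin families were followed through the activation of mouse CD4+ T cells. The set was taken by name: every gene whose name on the arrays begins with Hspa, Hspb, Hspd, Hspe, Hsp90, Hsph, Dnaja, Dnajb or Dnajc, together with Tcp1 and the numbered Cct genes. It held 75 genes of the 28874 on the arrays, measured by 132 probes. For a gene with several probes the probe with the highest mean signal was used. Of the 75 genes, 40 were detected in all 6 libraries, 10 in some and 25 in none, a gene counting as detected in a library where its detection p-value lay below 0.01. Among all genes, 8214 were detected throughout and 11937 in any library.

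Illumina bead arrays were hybridised with RNA of CD4+ T cells from 6-week-old mice whose strain the labels give as RAG1- BW TRP-1 TCR, a name for mice without the RAG1 recombinase whose T cells carry a transgenic receptor for the melanocyte protein TRP-1. Naive cells taken before activation (day 0) were compared with Th17 cells, a helper class named for the interleukin it secretes, collected 2, 4, 7, 12 and 18 days after they were activated with the peptide of TRP-1. All 6 groups share the strain, so the missing recombinase, the transgenic receptor and whatever BW in the name stands for are common to the controls. Each time point had 1 library: no difference between days has a replicate check, a standard error or a p-value. How many animals gave cells to a library, and how the CD4+ cells were purified, is not given in the sources. A gene is called higher or lower here where 2 libraries differed by 2-fold or more and the brighter detected it, and "at least" marks a bound against the detection limit where the dimmer library was without a detected signal. Levels are normalized log2 signals of 1 probe and are compared between days, not between genes.

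Chaperones bind unfolded or partly folded proteins and keep them from aggregating. HSP70 proteins (the Hspa genes) take up clients delivered by J proteins (Dnaja, Dnajb and Dnajc), which trigger their ATP hydrolysis, and HSP90 proteins finish the maturation of kinases and receptors. Hspd1 and Hspe1 encode the barrel and the lid of the mitochondrial folding chamber, and Tcp1 with the Cct genes encodes the cytosolic chamber that folds actin and tubulin. Heat shock factor 1 controls many cytosolic and mitochondrial members, whereas the unfolded protein response of the endoplasmic reticulum (ER) controls the ER members. T cells that leave rest begin to grow, divide and secrete, all of which load these systems with new protein.

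T cell identity genes, Cd4 among them, were detected on every array, 14 of 14, and their summed signal ran from log2 14.00 at day 0 to 15.62 at day 7. Markers of other cells were also present. Of 14 erythroid and platelet genes, 14 were detected at day 0 and 4 at day 18, and their summed signal lay at log2 15.996 and 9.45. Neutrophil genes were brightest at day 2, with 11 of 12 detected and a sum of log2 14.98, and none was detected at day 18. Macrophage and dendritic cell genes gave sums of log2 13.13 at day 0, 14.12 at day 2 and 8.20 at day 18, with 11, 11 and 2 of 15 detected. The B cell genes Ms4a1 and Pax5 and the NK and CD8 genes Ncr1 and Cd8a were detected in no library. The summed signal of the B cell list, 4 of 7 genes detected in any library, lay at log2 8.74 at day 0 and 6.84 at day 18. That of the NK and CD8 list, 5 of 7 detected in any library, was 12.51 at day 0, 10.78 at day 2 and 13.80 at day 18. Of its genes 4 were detected at day 0, 3 at day 2 and 5 at day 18. The part of these other cells in the chaperone values was not tested, and fewer cells of a type and less RNA per cell cannot be told apart in bulk RNA.

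Few of the chaperone genes taken by name differed by 2-fold from day 0. At none of the 5 activated days was their share above that of the arrays as a whole. At day 2 against day 0, 3 of the 50 detected members were higher, Hsp90aa1, Hspa4 and Dnajc12, and 2 were lower, Dnajc6 and Hspa1a. Those are 6.0% and 4.0% of the members, where 7.48% of all detected genes were higher and 8.96% lower. The 3 higher genes lay just past the threshold, at 2.00-fold to 2.04-fold. Of them, 0 were called under another scaling, without background correction or with an offset of 50. The counts also depend on the probe taken. Other probes of Hspd1, Hsp90ab1 and Tcp1, detected in all 6 libraries, were higher at day 2 by 1.54, 1.14 and 1.14 log2 units. Their brightest probes were higher by 0.60, 0.52 and 0.57. With the mean of detected probes the difference was 1.07 for Hspd1 and 0.69 for Hsp90aa1. At day 4, 0 members were higher against 8.1% of all genes, and 4 were lower (Dnajb2, Dnajc6, Hspa1a and Hspa2) against 9.44%. At day 7, 2 were higher (Hsp90b1 and Dnajb11) against 8.88%, and 4 lower (Dnaja3, Dnajb2, Dnajc6 and Hspa1a) against 9.34%. The higher genes at days 12 and 18 were the same 3, Hsp90b1, Dnajc3 and Dnajb6, against backgrounds of 7.18% and 7.92%. Lower at day 12 were Dnaja3, Dnajc10 and Hspa1a (7.73% of all genes), and Hspa1a was the 1 lower member at day 18 (8.68%). Every share of members in these comparisons lay below that of all genes, so the genes taken by name did not stand apart by these counts. The counts leave out 7 genes of the families listed under other names, of which 5 were detected. Among those, Hsph1 gave 9.09 at day 0 and 10.22 at day 2, and Dnajc21 gave 9.25 and 10.80, both past 2-fold. The others stayed within 2-fold at day 2.

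**Figure D1:**
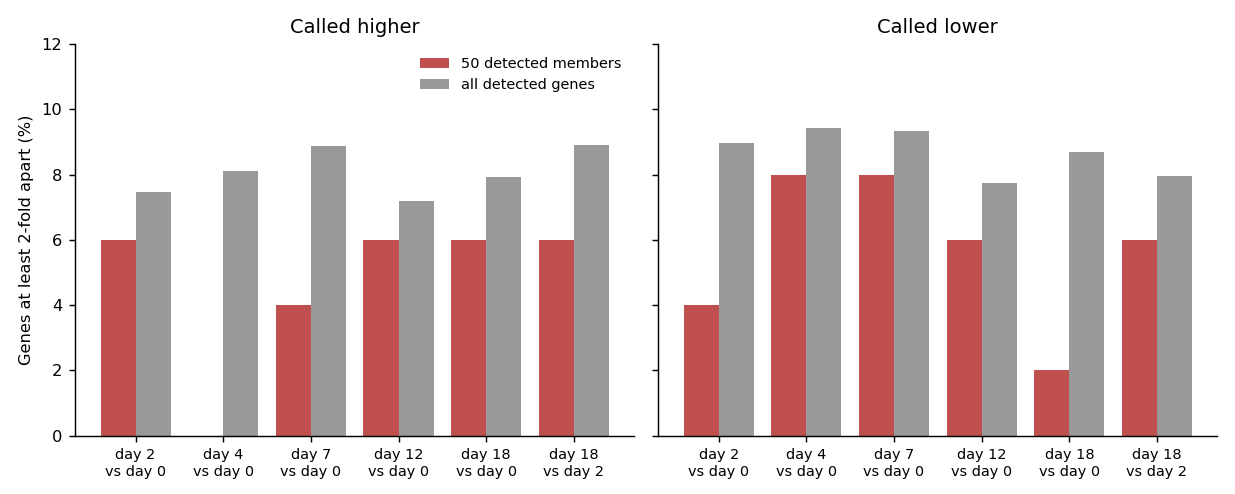
Share of genes higher or lower by at least 2-fold, in percent on the vertical axis, for the 50 detected members and for all 11937 detected genes, for the 5 activated days set against day 0 and for day 18 set against day 2, with 1 library a day. The members' bars lie below those of all genes in these 6 comparisons, with 0 members higher at day 4 and 4 lower at days 4 and 7.

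Over the members the median log2 difference from day 0 was 0.12 (day 2), 0.13 (day 4), -0.03 (day 7), -0.10 (day 12) and -0.09 (day 18), against -0.01 to 0.03 over all detected genes. Across the 6 libraries the median range of the 40 members detected throughout was 0.95 log2 units, and that of all 8214 such genes was 0.86. Of these 40 members, 13 had their highest signal at day 2 and 8 at day 0. Among the 50 detected members the counts were 14 and 12, where 18.2% of all detected genes were highest at day 2 and 24.3% at day 0. Within the activated days 19 of the 50 detected members were highest at day 2, as were 26.1% of all detected genes. Over these days 12 of 50 members (24%) spanned 2-fold, against 26.6% of all genes.

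**Figure D2:**
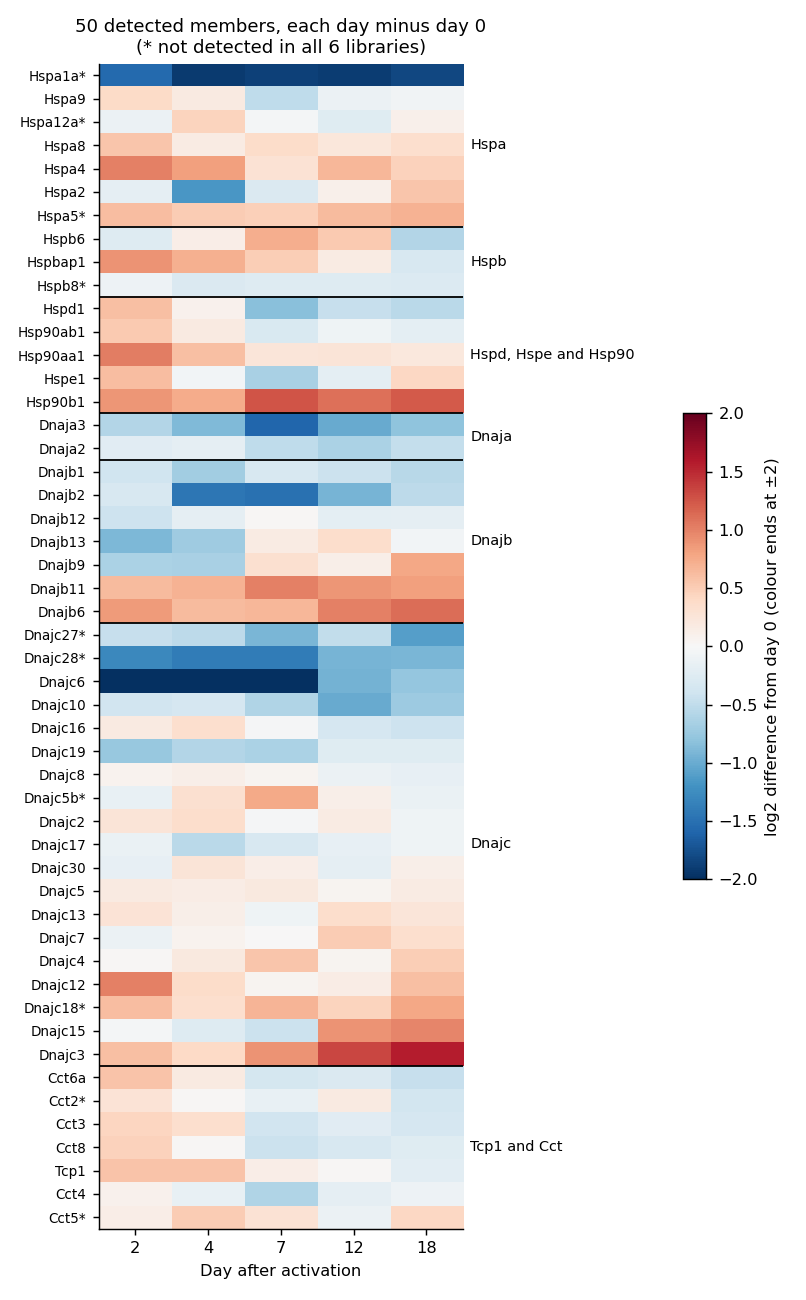
Log2 difference of each of the 50 detected members from day 0, by activated day across and by gene down, grouped by family, with colour ending at 2 log2 units either way and a star for genes not detected in all 6 libraries. Dnajc6 is lowest at day 2, by -2.81, Hsp90b1 is above day 0 on every day, and Hspd1, Cct3, Cct6a and Cct8 are above it at day 2 and below it from day 7.

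Hspa8 encodes the constitutive cytosolic HSP70 that serves protein folding and clathrin uncoating in every cell. Its normalized log2 signals were 13.12 (day 0), 13.67 (day 2), 13.28 (day 4), 13.49 (day 7), 13.35 (day 12) and 13.45 (day 18). Day 0 was the lowest of the 6, by 0.17 to 0.56 log2 units, which is under 2-fold throughout, although 1 of 3 Hspa8 probes was lowest at day 4, at 11.11 against 11.15 at day 0. The stress-inducible Hspa1a went the other way. It gave 6.15 at day 0, where alone it was detected, and 4.6, 4.24, 4.29, 4.26 and 4.34 at days 2, 4, 7, 12 and 18. Day 0 was thus at least 2.39-fold higher than day 2 and at least 2.28-fold higher than day 18, and Hspa1a was the 1 member lower on every activated day, as were 4.04% of all detected genes (0 members and 1.96% of genes were higher on every activated day). Hspa1a and Hspa1b have nearly identical transcripts, 2 further Hspa1a probes and both Hspa1b probes were detected in no library, and the erythroid markers were also highest in the day 0 library. These calls ended without background correction and with an offset of 50, at log2 differences of -0.73 to -0.47.

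The Hspa1a promoter is shown because it is the inducible gene that stood apart at day 0. Promoter windows are RefSeq's, from 250 bases before to 50 after the start, on GRCm38.p6, printed 5′ to 3′ on the gene's strand (chr17:34972107-34972406, minus). Capitals mark a pair of inverted heat shock units, GAANNTTC, which begins 104 bases before the start.
Hspa1a: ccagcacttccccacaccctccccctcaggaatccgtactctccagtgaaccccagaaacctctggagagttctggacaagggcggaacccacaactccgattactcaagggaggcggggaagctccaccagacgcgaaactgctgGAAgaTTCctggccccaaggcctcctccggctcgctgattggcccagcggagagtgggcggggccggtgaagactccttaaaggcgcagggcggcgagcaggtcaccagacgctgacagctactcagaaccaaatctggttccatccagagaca
A heat shock pair, written GAANNTTC or TTCNNGAA, was searched on both strands. It occurred in 17 of the 61 members that have a RefSeq window (27.87%) and in 16.97% of 27025 genes. The letters of such a match say nothing of whether the factor bound there.

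Among the other HSP70 genes, Hspa4 encodes a nucleotide exchange factor of the HSP110 branch. It gave 5.50 (day 0), 6.50 (day 2), 6.31 (day 4), 5.78 (day 7), 6.16 (day 12) and 5.95 (day 18), and day 2 was 2.00-fold above day 0. The HSP110 gene Hsph1 is listed on the arrays under an older name, HSP105, and so fell outside the name rule. Its signals were 9.09, 10.22, 9.43, 8.91, 8.38 and 8.88 at days 0, 2, 4, 7, 12 and 18. Day 2 was the highest library for both exchange factors, and Hsph1 was 2.18-fold higher there than at day 0 and 2.52-fold lower at day 18 than at day 2.
Hspa2, an HSP70 best known from the testis, gave 7.69, 7.51, 6.53, 7.40, 7.79 and 8.24 over the same days. It was 2.24-fold lower at day 4 than at day 0 and 3.29-fold higher at day 18 than at day 4. Its dip was confined to day 4 among the 6 libraries, and a second probe was detected in every library but day 4. The day 4 call ended without background correction, with an offset of 50 and with the mean of probes, at log2 differences of -0.93 to -0.71. Hspa12a was detected at day 4 alone and lay near the detection limit.

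HSP90 has an inducible and a constitutive cytosolic form. Inducible Hsp90aa1 gave 8.13 (day 0), 9.16 (day 2), 8.72 (day 4), 8.37 (day 7), 8.39 (day 12) and 8.33 (day 18). Constitutive Hsp90ab1 gave 12.42, 12.93, 12.59, 12.11, 12.32 and 12.22 over these days. Both were highest at day 2, Hsp90aa1 by 2.04-fold over day 0. The other Hsp90ab1 probes, detected in every library, were also highest at day 2, at 11.37 against 10.47 at day 0 and at 10.53 against 9.39. The probes parted later: at day 18 the first lay below day 0 and the other 2 above it, at 10.68 and 9.84.
Of 28 detected genes that encode heat shock factors or HSP70 and HSP90 partners, 2 were higher and 0 lower at day 2, and 1 was higher and 1 lower at day 18, with medians of 0.27 and 0.07, which turned negative, to -0.06 and -0.55, under median scaling. By the same rule 7.48% of all detected genes were higher and 8.96% lower at day 2, and 7.92% and 8.68% at day 18. The 2 partners higher at day 2 were Stip1, the adaptor that passes clients from HSP70 to HSP90, and Ppp5c, an HSP90-bound phosphatase. Stip1 gave 10.23, 11.35, 10.86, 10.42, 10.12 and 9.98 at days 0, 2, 4, 7, 12 and 18, a time course with the same highest day as Hsp90aa1, Hsp90ab1 and Hsph1. Fkbp5, an HSP90 partner of steroid receptors, had another order, with 6.99 (day 0), 7.60 (day 2), 8.95 (day 12) and 8.87 (day 18), which was 3.70-fold above day 0. Ppid, a cyclophilin of HSP90 complexes, gave 11.42 at day 0 and 10.35 at day 18, 2.10-fold lower.

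**Figure D3:**
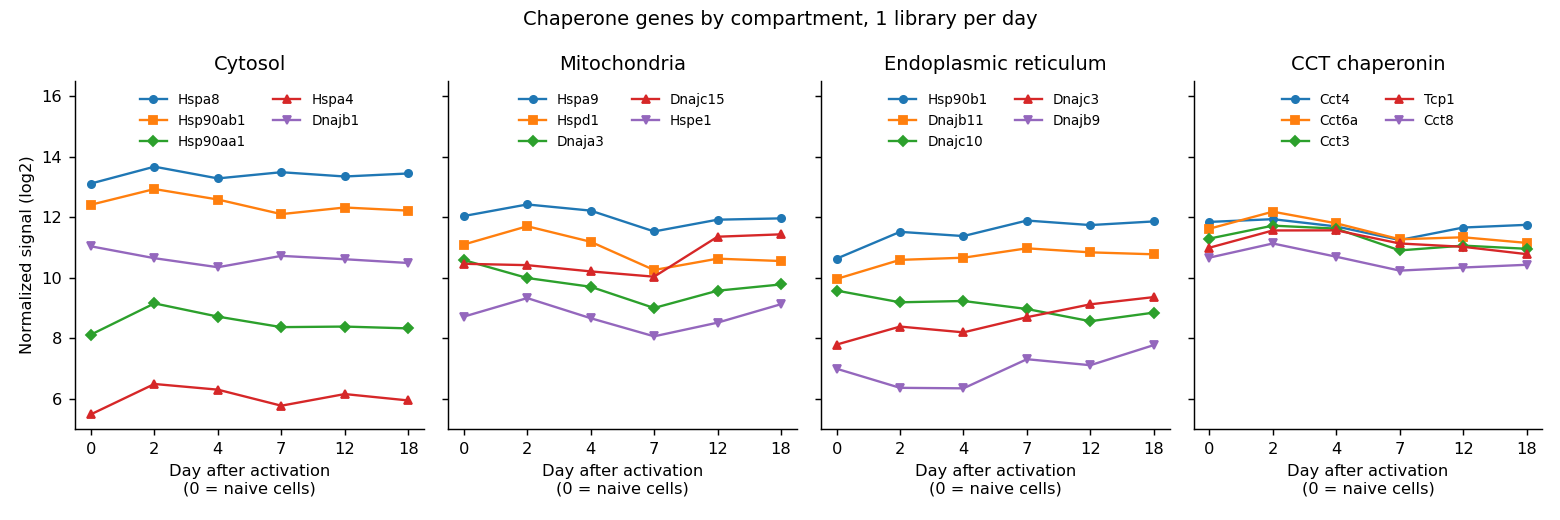
Normalized log2 signal of named members by day of collection (days 0, 2, 4, 7, 12 and 18 as equally spaced categories), 1 line a gene, grouped by the compartment of the protein, with 1 library a day. The HSP90 lines of the cytosol, the Hspd1 line and the Cct lines peak at day 2 or 4, whereas ER Hsp90b1 stays between 11.38 and 11.89 on every activated day, above its 10.63 at day 0.

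In mitochondria Hspd1, the barrel of the folding chamber, gave 11.10 (day 0), 11.70 (day 2), 11.19 (day 4), 10.26 (day 7), 10.63 (day 12) and 10.56 (day 18). Hspe1, its lid, gave 8.72, 9.33, 8.67, 8.07, 8.52 and 9.13 over the same days. Both were highest at day 2 and lowest at day 7, but they parted at day 18, where Hspd1 lay 2.22-fold below day 2 and Hspe1 differed from it by -0.20 log2 units. The second Hspd1 probe was also highest at day 2, at 10.10, and lay at 8.69 at day 18, near its day 0 value of 8.56, so that only the first probe was below day 0 late in the culture.
Hspa9, the mitochondrial HSP70 that pulls precursors through the import channel, gave 12.04, 12.42, 12.22, 11.53, 11.92 and 11.96. By this probe Hspa9 too was highest at day 2 and lowest at day 7, within 2-fold. A second Hspa9 probe, detected in every library, had the same highest and lowest days, at 10.91 and 9.79, which is past 2-fold. At day 18 against day 2 the second probe differed by -1.04 log2 units and the first by -0.46. Dnaja3, a J protein that works with Hspa9, was highest at day 0 instead. Its signals were 10.59, 9.996, 9.71, 9.01, 9.58 and 9.78, and it was 3.0-fold lower at day 7 and 2.02-fold lower at day 12 than at day 0. With the mean of detected probes both calls ended, at log2 differences of -0.82 and -0.48.

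The genes of the barrel and the lid lie head to head with overlapping promoter windows, which is why a single window is shown for them. The RefSeq windows of Hspe1 (plus strand) and Hspd1 (minus strand) overlap over 285 bases, chr1:55087898-55088182. The Hspe1 window, chr1:55087898-55088197, holds a run of alternating heat shock units, in capitals, that begins 89 bases before its start, and the same run read from the other strand begins 144 bases before the start of Hspd1.
Hspe1: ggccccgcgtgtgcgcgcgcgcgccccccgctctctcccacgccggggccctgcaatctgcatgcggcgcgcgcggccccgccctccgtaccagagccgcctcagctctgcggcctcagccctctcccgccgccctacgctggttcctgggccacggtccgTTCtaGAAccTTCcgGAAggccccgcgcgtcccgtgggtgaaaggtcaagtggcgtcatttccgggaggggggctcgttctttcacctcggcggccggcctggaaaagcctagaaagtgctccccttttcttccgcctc
The longer element, GAANNTTCNNGAA or TTCNNGAANNTTC, contains the pair and was searched on both strands. It occurred in 3 of the 61 members (4.918%), Hspd1, Hspe1 and Dnajb6, and in 0.6623% of all genes.

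Of 12 detected partners of mitochondrial folding and proteolysis, 1 was higher at day 2 (Yme1l1, an inner membrane protease, at 5.20 at day 0 and 6.27 at day 2, 2.10-fold) and 0 were lower. At day 7, 1 was higher and 2 were lower, and at day 18, 0 were higher and 1 was lower. At days 2, 7 and 18, 7.48%, 8.88% and 7.92% of all detected genes were higher, and 8.96%, 9.34% and 8.68% were lower. The partner lower at day 18 was Htra2, a protease of the space between the membranes. It gave 9.63, 9.03, 8.98, 8.25, 8.03 and 7.69, so that each later library lay below the one before, and day 18 was 3.82-fold below day 0. Clpp, the matrix protease subunit, was 2.11-fold lower at day 7, with 10.29 at day 0 and 9.21 at day 7. Trap1, the HSP90 of mitochondria, and Grpel1, the exchange factor of Hspa9, stayed within 2-fold of day 0.

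The J proteins of this organelle took different courses. Dnajc15, an inner membrane J protein described in mice as a brake on respiratory complex I, gave 10.47 (day 0), 10.42 (day 2), 10.21 (day 4), 10.04 (day 7), 11.36 (day 12) and 11.44 (day 18). Days 2, 4 and 7 lay at or below day 0, the lowest by -0.43 log2 units, and days 12 and 18 above it. Day 12 was 2.50-fold above day 7, where 2.29% of all genes were higher, and day 18 was 2.03-fold above day 2, a difference that scaling on T cell identity genes turned to -0.02. Its difference between days 18 and 2 exceeded that of Hspd1 by 2.17 log2 units, a contrast chosen after the values were seen. Dnajc19, the J protein of the import motor, gave 11.65 at day 0 and 10.90 to 11.41 on the activated days. Another Dnajc19 probe detected in every library was lowest at day 0, at 5.49, and highest at day 18, at 6.26, so that the gene's probes disagreed.

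The ER members did not share 1 time course. Hsp90b1, Dnajb11 and Dnajc3 were lowest at day 0, whereas Dnajb9 was lowest at day 4 and Dnajc10 highest at day 0. A lowest signal at day 0 was not particular to the ER, as Hspa8 and Dnajb6 had it too by their brightest probes. Hsp90b1, the HSP90 of the ER, which folds receptors and integrins, gave 10.63 (day 0), 11.52 (day 2), 11.38 (day 4), 11.89 (day 7), 11.74 (day 12) and 11.86 (day 18). Day 0 was the lowest library, and days 7, 12 and 18 were 2.39-fold, 2.16-fold and 2.34-fold above it. Scaling on T cell identity genes left log2 differences of 0.042, -0.07 and 0.11 and ended all 3 calls. Median scaling ended the day 18 call, at 0.87, and kept that of day 12 at 1.007. Dnajb11, an ER J protein that hands clients to the ER HSP70, gave 9.96, 10.59, 10.67, 10.98, 10.84 and 10.78. It was lowest at day 0 and highest at day 7, 2.02-fold apart.
Dnajc3, a J protein of the ER lumen first described as an inhibitor of the kinase PKR, gave 7.80, 8.39, 8.20, 8.70, 9.13 and 9.37. Its highest values were at days 12 and 18, 2.51-fold and 2.97-fold above day 0. Under T cell identity scaling these log2 differences were 0.016 and 0.15, and under median scaling that of day 18 was 0.91, so that the calls ended. Dnajb9, reported to hold the stress sensor IRE1 inactive, gave 7.00, 6.37, 6.35, 7.31, 7.12 and 7.78. Days 2 and 4 were its lowest, and day 18 was 2.66-fold above day 2. Its second probe was not detected at days 2 and 4 and was highest at day 18, at 5.90. The call ended under T cell identity scaling, at a log2 difference of 0.34, and without background correction, at 0.91.
Dnajc10, an ER disulfide reductase, was highest at day 0, at 9.58, and lowest at day 12, at 8.57, 2.02-fold lower. Hspa5, the ER HSP70 known as BiP, has 1 probe. It gave 4.46 at day 0, undetected, and 5.08, 4.98, 4.94, 5.09 and 5.17 on the activated days, all close to the detection limits of 4.88 to 4.97. No fold was drawn from that probe.

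Promoters of Hsp90b1, Dnajc3 and Hspa5 are shown because all 3 hold the ER stress element, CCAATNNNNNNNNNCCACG, which was searched on both strands and shares no unit with the heat shock motifs. It occurred in these 3 of the 61 members (4.918%) and in 0.1369% of genes, 37 in all. Of the remaining genes with it, 7 were among 23 ER folding genes that have a window (Calr, Canx, Creld2, Derl3, Ero1b, Pdia6 and Syvn1) and 27 were not. Capitals mark the fixed letters of each match. The Hsp90b1 window, chr10:86705395-86705694 (minus strand), holds a match 212 bases before the start and another, on the opposite strand, 107 bases before it.
Hsp90b1: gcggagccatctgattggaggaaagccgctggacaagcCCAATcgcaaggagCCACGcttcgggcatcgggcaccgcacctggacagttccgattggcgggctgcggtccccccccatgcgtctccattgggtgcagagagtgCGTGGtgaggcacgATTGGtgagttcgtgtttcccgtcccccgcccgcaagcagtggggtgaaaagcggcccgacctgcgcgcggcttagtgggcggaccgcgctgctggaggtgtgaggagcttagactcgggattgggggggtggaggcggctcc
The Dnajc3 window, chr14:118937682-118937981 (plus strand), holds a match 105 bases before the start, and the Hspa5 window, chr2:34771840-34772139 (plus strand), holds it 65 bases before.
Dnajc3: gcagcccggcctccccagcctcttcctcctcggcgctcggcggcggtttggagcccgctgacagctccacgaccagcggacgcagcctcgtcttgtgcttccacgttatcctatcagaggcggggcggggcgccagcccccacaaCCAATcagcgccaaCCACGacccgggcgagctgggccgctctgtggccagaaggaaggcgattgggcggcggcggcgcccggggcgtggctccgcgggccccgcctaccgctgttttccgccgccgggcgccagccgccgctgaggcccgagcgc
Hspa5: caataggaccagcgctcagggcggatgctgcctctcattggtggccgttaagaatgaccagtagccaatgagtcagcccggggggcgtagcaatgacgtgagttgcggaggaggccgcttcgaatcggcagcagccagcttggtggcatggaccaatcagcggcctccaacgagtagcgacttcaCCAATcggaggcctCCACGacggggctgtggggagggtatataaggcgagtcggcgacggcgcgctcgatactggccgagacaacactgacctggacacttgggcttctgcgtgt

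Of the 22 other detected genes for ER folding and the unfolded protein response, 6 were higher and 1 lower at day 2, and 7, 9, 8 and 11 were higher with 0 lower at days 4, 7, 12 and 18. Of all detected genes 7.48%, 8.1%, 8.88%, 7.18% and 7.92% were higher on these 5 days. Their median difference from day 0 was 0.67 at day 2 and 1.02 at day 18, against -0.01 and 0.03 over all detected genes, and was 0.40 and -0.30 when arrays were scaled on T cell identity genes. Sdf2l1, an ER chaperone cofactor, gave 7.23, 9.18, 9.43, 10.12, 9.51 and 9.21 at days 0, 2, 4, 7, 12 and 18. Xbp1, the transcription factor made active by IRE1, gave 9.71, 11.41, 11.79, 12.39, 11.57 and 11.30. Both peaked at day 7, 7.42-fold and 6.39-fold above day 0. Hsp90b1 and Dnajb11 were also highest on that day, but narrowly. Hsp90b1 gave 11.89 there and 11.86 at day 18, and Dnajb11 gave 10.98 there and 10.84 at day 12. P4hb, a protein disulfide isomerase, was highest at day 2, at 12.62 against 11.30 at day 0, 2.50-fold. Ddit3, a factor of prolonged ER stress, gave 7.65, 6.33, 7.30, 7.87, 7.58 and 8.76. It was 2.50-fold lower at day 2 and 2.16-fold higher at day 18 than at day 0. Dnajb9 was likewise below day 0 at day 2 and highest at day 18.

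Differences between single genes of different compartments were also taken within each array. There a constant scaling of the array cancels and quantile normalization does not. Between days 18 and 2 the log2 difference of Hsp90b1 exceeded that of Hspd1 by 1.49 and that of Hsp90ab1 by 1.06. For Dnajc3 over Hsp90aa1 the same contrast was 1.80. At day 2 against day 0 Hsp90b1 exceeded Hspd1 by 0.28, but with the mean of detected probes this contrast turned to -0.19. These genes were paired after their values were seen, and the contrasts describe these libraries without testing a difference between compartments.

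The cytosolic chaperonin is a ring of several different subunits, and 5 of its genes were detected in all libraries. Tcp1 gave 10.996 (day 0), 11.57 (day 2), 11.57 (day 4), 11.14 (day 7), 11.03 (day 12) and 10.78 (day 18). Cct3 gave 11.30, 11.72, 11.63, 10.91, 11.06 and 10.96 over these days. Cct6a gave 11.62, 12.19, 11.80, 11.27, 11.34 and 11.16. By their brightest probes these 3 subunits had their highest signals at days 2 and 4 and lay below day 0 at day 18.
Cct8 gave 10.67, 11.14, 10.70, 10.24, 10.34 and 10.43. Cct4 gave 11.85, 11.94, 11.70, 11.25, 11.66 and 11.75. All 5 were above day 0 at day 2, by 0.09 to 0.57 log2 units, and all 5 were below day 2 at day 18, with differences of -1.03 to -0.19. These signs were the same for the 5 subunits under median, reference gene and T cell identity scaling and with the mean of probes. By the 2-fold rule 1 of them was called, Cct6a, 2.04-fold lower at day 18 than at day 2, where 3 members were lower (Cct6a, Hspd1 and Hspbap1; 7.95% of all genes) and 3 higher (Dnajb9, Dnajc15 and Dnajc6; 8.9%). Reference gene scaling ended the call of Cct6a, at a log2 difference of -0.92. The second probes of Tcp1, Cct3 and Cct6a, detected in all libraries, were lower at day 18 than at day 2 as well, at 6.23 against 7.07, 9.73 against 10.50 and 10.84 against 11.96. Set against day 0 they parted. At day 18 the second Tcp1 probe lay above its day 0 value of 5.93, that of Cct3 was nearly level with 9.74, and that of Cct6a lay below 11.365. Cct2 and Cct5, with 1 probe each, lay between 4.53 and 5.43 near the detection limit, and Cct7 and the testis subunit Cct6b were detected in no library.

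The substrates and partners of the chaperonin are known from the folding of actin and tubulin. Of 10 detected actin and tubulin genes, 3 were higher at days 2, 4 and 12 and 4 at day 7, with 0 lower, and at day 18 there was 1 higher and 1 lower. Among all detected genes 7.18% to 8.88% were higher and 7.73% to 9.44% lower on these days. Of the 10 genes, 0 were higher and 3 lower at day 18 against day 2, where 8.9% and 7.95% of all genes were. Their median there was -0.90 and stayed negative under the other scalings, at -1.97 to -0.79. Tubb6 gave 6.14 at day 0 and 11.19, 10.49, 10.20, 9.47 and 10.29 afterwards, 33.2-fold higher at day 2. Tuba1a gave 8.66, 10.32, 10.83, 11.42, 10.53 and 9.42, 6.75-fold higher at day 7.
Prefoldin delivers actin and tubulin chains to the ring. Of 8 detected prefoldin and cofactor genes, 0 were higher and 1 lower at day 2, and 0 were higher or lower at day 18. The shares of all detected genes were 7.48% higher and 8.96% lower at day 2, and 7.92% and 8.68% at day 18. Pfdn4 gave 10.41, 11.35, 11.01, 10.56, 10.76 and 10.35, highest at day 2 and 2.01-fold lower at day 18. Pfdn5 ran the other way, with 12.10 at day 0, 11.13 at day 2 and 12.20 at day 18, 2.10-fold above day 2.

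Dnajc6 had the widest range of all members. It encodes auxilin, a J protein that brings HSP70 to clathrin-coated vesicles and is best known from neurons. Its signals were 8.97 (day 0), 6.16 (day 2), 6.23 (day 4), 6.57 (day 7), 8.03 (day 12) and 8.19 (day 18). Days 2, 4 and 7 formed a low group, 7.03-fold, 6.68-fold and 5.27-fold below day 0, and days 12 and 18 lay between. Without background correction these 3 log2 differences shrank to -1.99, -1.95 and -1.77. Day 12 was 2.75-fold above day 7 and day 18 was 4.10-fold above day 2, a log2 difference that T cell identity scaling took from 2.03 to 0.94, ending the call. A second probe detected in all libraries gave 8.61, 5.77, 5.94, 6.34, 7.68 and 7.88. From day 0 it differed by -2.84, -2.66, -2.26, -0.92 and -0.72 on the activated days, and the first probe by -2.81, -2.74, -2.40, -0.94 and -0.78.

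Dnajb6, a J protein that keeps aggregation-prone chains soluble, gave 8.02 (day 0), 8.87 (day 2), 8.66 (day 4), 8.69 (day 7), 9.02 (day 12) and 9.14 (day 18). Day 0 was its lowest library, and days 12 and 18 were 2.01-fold and 2.17-fold higher, but scaling on T cell identity genes turned both differences negative, to -0.31. Median scaling, with log2 differences of 0.77 and 0.45, and reference gene scaling, with 0.94 and 0.95, also ended both calls. Its other probes were also lowest at day 0, at 7.69 and 7.53, and lay at 8.30 and 8.07 at day 18. Its promoter is printed because it is the third with the longer heat shock element (chr5:29735648-29735947, plus strand), which begins 46 bases before the start.
Dnajb6: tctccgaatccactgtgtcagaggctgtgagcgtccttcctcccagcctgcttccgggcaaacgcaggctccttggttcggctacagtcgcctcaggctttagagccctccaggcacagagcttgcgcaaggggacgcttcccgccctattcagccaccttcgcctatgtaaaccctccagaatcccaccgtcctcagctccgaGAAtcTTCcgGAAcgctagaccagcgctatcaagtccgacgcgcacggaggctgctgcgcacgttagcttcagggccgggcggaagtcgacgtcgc
Dnajb1, the main J partner of inducible HSP70, gave 11.04 at day 0, 10.65, 10.35, 10.73, 10.62 and 10.49, highest at day 0 and within 2-fold on all days. Dnajb2, which binds ubiquitinated clients, gave 7.99, 7.68, 6.55, 6.50, 7.06 and 7.47. Its low days were 4 and 7, 2.72-fold and 2.82-fold below day 0, the former not called without background correction (-0.97 on the log2 scale), and day 4 was 2.19-fold below day 2, where 2.28% of all genes were lower. Dnajb13, known from cilia and sperm tails, was lowest at days 2 and 4, at 5.67 and 5.86, and highest at day 12, at 6.93. Dnaja2 ranged from 5.27 to 5.91.

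Dnajc12 had its highest library at day 2, at 6.84 against 5.84 at day 0, 2.00-fold. Other Dnajc genes varied little. Dnajc5, the cysteine string protein of secretory vesicles, gave 10.32 to 10.52, the narrowest range of the 40 members at 0.20 log2 units. Dnajc8, found with spliceosomes, ranged over 0.28, Dnajc2, a J protein at the ribosome, over 0.43, and Dnajc13, of endosomes, over 0.43. Dnajc7, which binds HSP70 and HSP90, ranged from 9.52 at day 2 to 10.13 at day 12. Dnajc16, Dnajc17, Dnajc4 and Dnajc30 likewise stayed within 2-fold over the 6 libraries. Dnajc18 and Dnajc27 were detected in 5 and 4 libraries, and Dnajc28 and Dnajc5b in 1 library each, day 0 for Dnajc28 and day 7 for Dnajc5b.

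Small heat shock proteins hold unfolded clients without ATP. Hspb6, best known from muscle, was the 1 gene of this kind detected in all libraries. It gave 8.67 (day 0), 8.41 (day 2), 8.81 (day 4), 9.39 (day 7), 9.20 (day 12) and 8.08 (day 18). Days 7 and 12 were the highest, and day 18 was 2.17-fold below day 12, where 2.27% of all genes were lower and 1.32% higher. Hspb8 was detected at days 0 and 2, at 5.06 and 4.97. Hspb1, the most studied small heat shock gene, was detected by neither of its probes. Hspbap1, which the name rule takes in although it encodes a protein that binds Hspb1, gave 6.18, 7.08, 6.89, 6.67, 6.35 and 5.86, and was 2.32-fold lower at day 18 than at day 2, a call that ended without background correction, at a log2 difference of -0.66, and with an offset of 50, at -0.88.

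The 25 members detected in no library included Hspa1b, Hspa1l, Hspa4l, Hspa12b, Hspa13 and Hspa14, 5 Hspb genes, Dnaja1, 6 Dnajb genes, 5 Dnajc genes, Cct6b and Cct7. Cct7, with 1 probe, belongs to a ring most of whose other genes were detected here, and an undetected probe says only that it gave no signal above background. Outside the name rule 7 genes of the families were listed under other names, of which 5 were detected. Apart from Hsph1 these included Dnajc21, a ribosome assembly J protein, at 9.25, 10.80, 10.64, 10.19, 9.81 and 9.51, and Hspbp1, an HSP70 exchange factor, at 7.92, 8.52, 8.92, 8.88, 8.77 and 9.12.

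Between neighbouring days few members were called. At day 4 against day 2, 0 were higher (1.91% of all genes) and 1 was lower, Dnajb2. At day 7 against day 4, 0 of 50 were higher and 0 lower, where 2.54% of all genes were higher and 2.44% lower. At day 12 against day 7, 2 were higher, Dnajc6 and Dnajc15, which is 4.0% of members against 2.29% of all genes, and 0 were lower (2.9% of all genes). At day 18 against day 12, 0 were higher and 1 was lower, Hspb6. With day 4 as the early library, day 18 had 5 members higher, Dnajb9, Dnajc15, Dnajc3, Dnajc6 and Hspa2, which is 5 of 50 where 7.36% of all genes were higher, and 1 lower, Hspbap1, against 6.69%.

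Scaling set how many members were counted on each side. Scaling on the median moved the median of all detected genes by -0.11 to -0.43 log2 units against day 0, on reference genes by -0.21 to 0.07, and on T cell identity genes by -0.24 to -1.39. At day 18 against day 0 the split of members was 3 higher to 1 lower. It became 0 to 8 under median scaling and 0 to 32 under T cell identity scaling, and was 3 to 1 under reference gene scaling. Over all genes the share of calls that were higher was 47.7%, and 15.4%, 2.55% and 44.4% under these scalings. As a yardstick for a single probe, the SD of the gap between the log2 differences of 2 probes to the same gene was 0.39 to 0.44 log2 units over 2393 genes and 0.29 to 0.43 over 13 members, of which 11 shared their sign between probes at day 2 and 6 at day 12 against day 0.

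**Figure D4:**
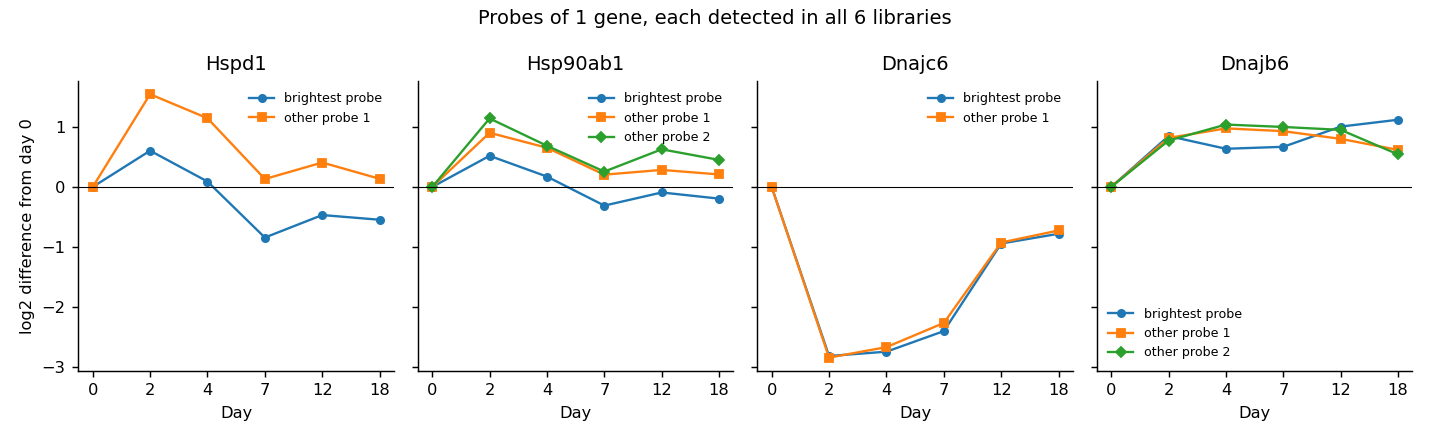
Log2 difference from day 0 on the vertical axis by day (equally spaced categories) for each probe detected in all 6 libraries of Hspd1, Hsp90ab1, Dnajc6 and Dnajb6, 1 line a probe. The Dnajc6 lines lie together, while the brightest probes of Hspd1 and Hsp90ab1 end below day 0 at day 18 and their other probes above it.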

How the data were processed

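RNA of 6 samples, 1 per time point, was measured on Illumina bead arrays. Per the labels' protocols, RNA was extracted with Trizol, treated with DNase and turned into biotin-labelled cRNA. The deposited table holds 1 raw intensity and 1 detection p-value for each probe on each array, per the file headers. A further deposited table of normalized intensity served as an alternative. The sources do not give how the detection p-value and that normalized intensity were made. Intensities were background-corrected, quantile-normalized and put on the log2 scale with neqc (offset 16) of limma 3.58.1 in R 4.3.3. Other steps used Python 3.11.15, pandas 2.3.3, numpy 2.4.6 and matplotlib 3.10.9. The arrays detected 13687 to 14258 of 45281 probes (30.2% to 31.5%) at p below 0.01. Their number limits the precision. Detection limits were log2 4.88 to 4.97, the lowest signal of a detected probe. A gene undetected in the dimmer library was set to that limit and its fold given as a bound. The 2-fold rule was run on simulated data with planted changes larger than 2-fold in genes detected throughout. That run says nothing of calls just past 2-fold or near the detection limit. No model was fitted. No per-sample column was left unused (0).

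Of 30854 probe names, 16223 matched a RefSeq symbol and 5684 a synonym, 8919 kept the file's name and 33 were unusable, and all 75 member names matched a symbol. Promoters are RefSeq's on GRCm38.p6. Protein features were listed in the design and are not used here. The values of 1 gene on the marker lists are not reported here.

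Members and gene lists were chosen with earlier results of these data known. Any detected member may be named. Values in all libraries were planned for key members and for the 4 widest of each family, and of every other list the 4 with the widest range and the brightest may be named. Alternatives were scaling on the median or on reference or T cell identity genes, the offset raised to 50, signals without background correction, the mean of a gene's detected probes, the deposited normalized values, a detection threshold of 0.05 and the genes detected throughout. Day 4 in place of day 2 was added after the data were seen.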

Additional observations from a re-analysis of the deposited data

How the results depend on the processing

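No paired analysis was possible because each day had 1 library, and for the same reason no replicate could be left out. The count of members higher at day 2 against day 0 went from 3 to 0 under median scaling, reference gene scaling, T cell identity scaling, no background correction and an offset of 50. Of all genes 3.93% to 5.50% were higher under these settings. Members lower at day 2 went from 2 to 4, 4, 5, 1 and 1 under the same settings and to 1 with genes detected in all 6 libraries. The shares of all genes lower were 13.8%, 12.6%, 14.1%, 4.44%, 6.12% and 7.95% in that order. Members lower at day 4 went from 4 to 7 (reference genes), 18 (T cell identity), 1 (no background correction) and 2 (offset of 50). The shares of all genes lower there were 14.1%, 43.2%, 4.985% and 6.65%. Members higher at day 4 stayed 0 under the settings tried, where 2.50% to 8.57% of all genes were higher. T cell identity scaling left 0 members higher at days 7, 12 and 18 against day 0, and 37, 34 and 32 lower, where 64.3%, 60.5% and 58.5% of all genes were lower. Without background correction, or with an offset of 50, 1 member was higher at day 7, 0 were lower at day 12 and 0 were lower at day 18. All genes under these settings had 4.91% and 6.53% higher at day 7. They had 4.24% and 5.4% lower at day 12, and 4.77% and 6.25% lower at day 18. Median scaling gave 6 members lower at day 12 (10.3% of all genes), 8 lower and 0 higher at day 18 (19.5% and 3.55%), and 7 lower at day 18 against day 2 (12.6%). With genes detected in all 6 libraries, 0 members were lower at day 18 against day 0 (7.11% of all such genes). Against day 2, those higher at day 18 became 5 (reference genes), 0 (T cell identity) and 1 (no background correction), and T cell identity scaling gave 25 lower (41.4% of all genes). Day 4 in place of day 2 gave 5 higher and 1 lower. T cell identity scaling reversed Dnajb6 at days 12 and 18 (-0.31 both), Hsp90b1 at day 12 (-0.0706) and Dnajc15 at day 18 against day 2 (-0.0202). Of 28 called differences of the genes given in full, 28 were kept with the deposited normalized values, 22 with the mean of probes, 16 under T cell identity scaling and 13 without background correction. The cause of these shifts was not tested. Differences just past 2-fold, as for Hspa4 and Dnajc12, and signals near background, as for Hspa5, are the least firm.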

Other observations

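Hsf1, the gene of heat shock factor 1, picked after its values were seen, gave 10.20 (day 0), 10.18 (day 2), 9.91 (day 4), 9.42 (day 7), 9.77 (day 12) and 10.04 (day 18). It was lowest at day 7 and stayed within 2-fold of day 0. Hspd1, Hspe1, Hspa9 and Hsp90ab1 were also lowest at day 7 by their brightest probes. The other probes of Hspd1 and Hsp90ab1 were lowest at day 0. Hspa8, Hsp90aa1 and Hspa4 were lowest at day 0 by their brightest probes. The lowest day was not counted over all genes, so a low at day 7 is not shown to be particular to chaperones. A link between Hsf1 and these members was not tested.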
